A study of Caenorhabditis elegans with 12 samples.

Results

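Y47H10A.5 (WBGene00012961) is a protein-coding gene of the nematode Caenorhabditis elegans and the known target of the miRNA mir-243 and the Argonaute RDE-1. It is 1 of the 46217 gene identifiers in the deposited expression table. It was chosen by name, with its ratio between the cpl-1* strains known from earlier results of these data, so its values between those strains are a description and carry no test. The study asked which RNAs are turned over through the RNA silencing machinery when misfolded protein accumulates in the endoplasmic reticulum (ER). RNA was sequenced from 12 samples of whole worms, with 3 samples for each of 4 strains, all taken at day 1 of adulthood after growth at 20 °C. Values of 3 strains are used here.

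The strain with the silencing defect, PP2246, carried rde-1(ne219) on chromosome V together with the transgene hhIs113 on chromosome I, and is called the rde-1(ne219) mutant from here on. The cpl-1* strain, PP1386, carried hhIs113 and the wild-type rde-1 gene. Wild-type worms were strain PP1, the DR subclone of the CB original, with no transgene. In both cpl-1* strains the intestinal promoter of nhx-2 drives CPL-1*, a mutant form of the cathepsin L-type protease CPL-1 that does not fold properly and is fused to a fluorescent protein. The genotype labels give hhIs113 with a different second substitution and a different tag in the 2 strains, and list the pharyngeal marker Pmyo-2::mCherry for the rde-1(ne219) mutant alone, whereas the sample sources name the same yfp fusion for both. Y47H10A.5 lies on the chromosome to which the labels assign the transgene. No strain with rde-1(ne219) and without cpl-1* was measured, so an effect of the allele that does not need cpl-1* cannot be told apart from one that does.

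In RNA interference triggered by double-stranded RNA (exo-RNAi), Dicer cuts the trigger into short RNAs that are loaded into RDE-1, and RNA-dependent RNA polymerases then make secondary siRNAs on the target transcript. Secondary Argonautes bind these siRNAs and silence the target. Most miRNAs act through the Argonautes ALG-1 and ALG-2, but mir-243 is sorted into RDE-1 and so directs secondary siRNAs against Y47H10A.5. The ne219 allele is a loss-of-function lesion in the PAZ domain of RDE-1, the domain that holds the end of the short RNA. It is a point mutation, so the level of rde-1 mRNA does not check the label.

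In the annotation of the WBcel235 assembly (Ensembl release 115) Y47H10A.5 lies on the minus strand of chromosome I, at positions 12095482 to 12097987. Its 4 exons sum to 1366 bases, of which 993 code for 331 amino acids, with a 5′ UTR of 48 bases and a 3′ UTR of 322 bases. The deposited locus runs across positions 12095776 to 12097987. It therefore starts 294 bases inside the annotated end of the transcript, on the side of the 3′ UTR. No gene ontology term is listed for Y47H10A.5 in the deposited table.

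Y47H10A.5 was abundant in rde-1(ne219) mutants and scarce in the other strains. Levels are FPKM, fragments normalized to transcript length and to the fragments mapped, and the table gives 1 value per gene for each strain, pooled over its samples. Y47H10A.5 had 676 FPKM in rde-1(ne219) mutants, against 4.82 FPKM in cpl-1* worms and 2.34 FPKM in wild type. The difference between the cpl-1* strains was 140-fold, a log2 ratio of 7.13. With 1 pooled value per strain there is no replicate spread and no known depth behind any ratio given here, and no difference could be set against an error. In whole-worm RNA, more cells with the transcript and more transcript per cell cannot be told apart.

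Y47H10A.5 stood among the most abundant transcripts of the rde-1(ne219) mutant, where it ranked 228 by FPKM among the 16049 genes whose test was completed in all 3 comparisons. It ranked 10033 in cpl-1* worms and 11177 in wild type. Thus 98.6% of these genes had a lower level in rde-1(ne219) mutants, against 37.5% in cpl-1* worms and 30.4% in wild type. Its level was 52.3 times the median gene in the rde-1(ne219) mutant, 0.477 times the median in cpl-1* worms and 0.254 times the median in wild type.

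**Figure D1:**
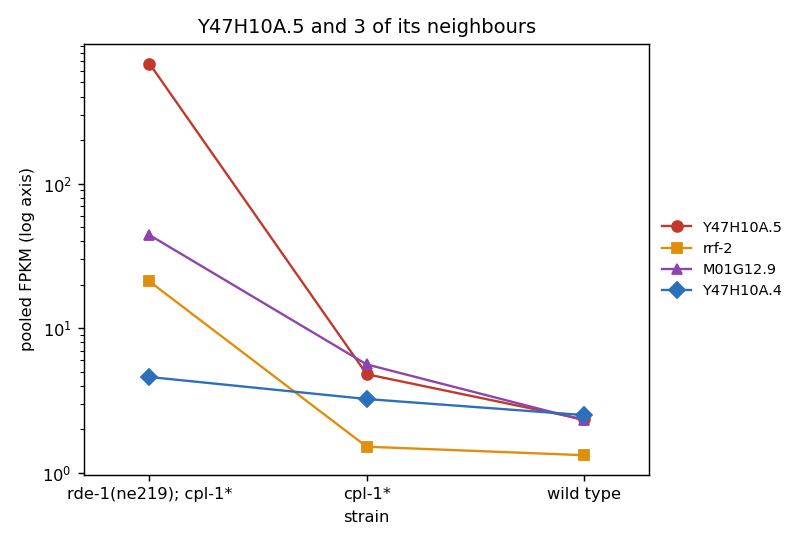
Pooled FPKM (log axis) of Y47H10A.5 and its neighbours rrf-2, M01G12.9 and Y47H10A.4 in the rde-1(ne219) mutant, the cpl-1* strain and wild type, with 1 pooled value per point and lines that only join the points of a gene. Y47H10A.5 is the highest gene plotted in the rde-1(ne219) mutant (676 FPKM) and lies close to M01G12.9 in cpl-1* worms (4.82 and 5.63 FPKM) and in wild type (2.34 and 2.31 FPKM).

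The log2 ratio of Y47H10A.5 between the cpl-1* strains ranked 4 among 17061 genes with a completed test and a level above 0 in both strains. The median of all these ratios was 0.21, and the 5th and 95th percentiles were −2.01 and 2.53. Of the 17146 genes with a completed test, 28.1% were at least 2-fold higher in rde-1(ne219) mutants and 14.1% at least 2-fold lower. These shares stand beside a ratio that was known when the gene was chosen, and nothing is read from them. The FPKM difference of 671 ranked 26 of 17146.

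The genes ranked just above Y47H10A.5 had far lower levels. ZK1025.8 had 13.8 FPKM in rde-1(ne219) mutants and 0.0672 FPKM in cpl-1* worms, and ranked first with a log2 ratio of 7.68. Y6E2A.7 (log2 ratio 7.63) and Y50D4A.3 (7.45) had 2.51 and 3.22 FPKM in rde-1(ne219) mutants, against 0.0127 and 0.0184 FPKM in cpl-1* worms. Just below it came ttr-4, a transthyretin-related gene (7.88 against 0.0587 FPKM, log2 ratio 7.07), M01G12.7 (2.47 against 0.0185 FPKM, 7.06) and Y105C5A.12 (11.9 against 0.112 FPKM, 6.73). All 6 thus had a denominator of at most 0.112 FPKM, where a small absolute error moves a ratio far, whereas that of Y47H10A.5 was 4.82 FPKM. Every gene with a completed test had at least 0.377 FPKM in 1 of the cpl-1* strains, so genes this low in cpl-1* worms entered the ranking only through a higher level in rde-1(ne219) mutants. M01G12.7, a neighbour on chromosome I, is one of them.

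Among the 13533 genes with at least 1 FPKM in both cpl-1* strains, Y47H10A.5 ranked 1. The next gene, F22E5.6, was 26.5-fold higher in rde-1(ne219) mutants (31.9 against 1.21 FPKM), 2.41 log2 units below Y47H10A.5. It was followed by sdz-35 (23.0-fold) and the acyl-CoA synthetase gene acs-2 (21.6-fold). Unlike Y47H10A.5, acs-2 had a higher level in wild type (42.8 FPKM) than in cpl-1* worms (4.28 FPKM), beside 92.4 FPKM in rde-1(ne219) mutants. Among genes at or above 100 FPKM in rde-1(ne219) mutants, 1420 in number, 1 was listed at 0 in cpl-1* worms and Y47H10A.5 had the largest ratio of the other 1419. The next was cpr-3, a cathepsin B-like cysteine protease gene, with 238 FPKM in rde-1(ne219) mutants, 16.1 FPKM in cpl-1* worms and 5.42 FPKM in wild type, a 14.8-fold difference between the cpl-1* strains. The limit of 100 FPKM applies only to the strain in which Y47H10A.5 is high, so this rank is a description and no separate evidence.

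**Figure D2:**
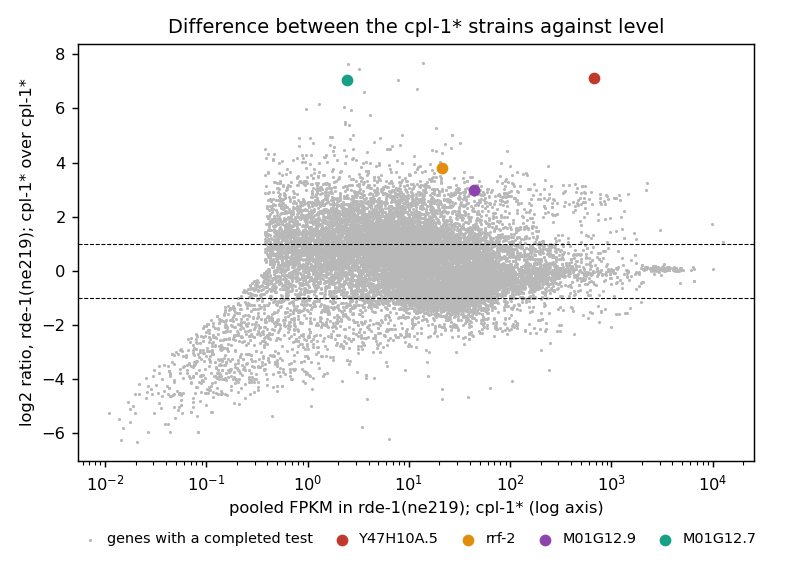
Log2 ratio of pooled FPKM, rde-1(ne219); cpl-1* over cpl-1*, against pooled FPKM in rde-1(ne219); cpl-1* (log axis), with 1 point per gene with a completed test and dashed lines at 2-fold. Y47H10A.5 (7.13 at 676 FPKM) lies apart from other genes of its level, and among genes at or above 100 FPKM cpr-3 has the next ratio (3.89).

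Under 10 FPKM in both cpl-1* worms and wild type and at or above 100 FPKM in rde-1(ne219) mutants were 4 of the 17146 genes, by limits that were set after the values were seen. They were Y47H10A.5, the cuticle collagen genes col-41 and dpy-9, and mir-80, which was listed at 101 FPKM in rde-1(ne219) mutants and at 0 in the other strains. Here col-41 had 116 FPKM in rde-1(ne219) mutants, 9.27 FPKM in cpl-1* worms and 0.244 FPKM in wild type. For dpy-9 the levels were 104 FPKM in rde-1(ne219) mutants, 8.85 FPKM in cpl-1* worms and 1.23 FPKM in wild type. Both collagen genes thus also differed between cpl-1* worms and wild type, by log2 ratios of 5.25 and 2.85.

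Between cpl-1* worms and wild type, which both carry wild-type rde-1, Y47H10A.5 differed by 2.05-fold (4.82 against 2.34 FPKM, log2 ratio 1.04). This ranked 2553 of 16293, and 16.5% of the 16395 genes tested were at least 2-fold higher in cpl-1* worms, so the value lies among those of many genes. The median log2 ratio was −0.03, and the 95th percentile was 2.44. Between rde-1(ne219) mutants and wild type Y47H10A.5 differed by 288-fold (log2 ratio 8.17, rank 32 of 16937), in a comparison where 33.7% of genes were at least 2-fold higher. That log2 ratio is the sum of the other 2 and no separate measurement.

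Genes next to Y47H10A.5 on chromosome I were compared by the deposited loci, taking the 10 nearest genes on each side with at least 1 FPKM in a strain. On the side of higher coordinates, which is upstream of Y47H10A.5, the nearest gene was rrf-2, which encodes an RNA-dependent RNA polymerase related to RRF-1. Its locus begins 683 bases beyond Y47H10A.5 on the same strand, and the annotated genes do not overlap. It had 21.1 FPKM in rde-1(ne219) mutants, 1.52 FPKM in cpl-1* worms and 1.33 FPKM in wild type, so it was 13.9-fold higher in the rde-1(ne219) mutant than in cpl-1* worms (log2 ratio 3.80, rank 98 of 17061). How reads shared by the related genes rrf-1 and rrf-2 were counted, and whether strand was used, is not given in the sources used here.

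Higher ratios went on beyond rrf-2. M01G12.9, at a gap of 11108 bases, had 44.1 FPKM in rde-1(ne219) mutants, 5.63 FPKM in cpl-1* worms and 2.31 FPKM in wild type (7.84-fold between the cpl-1* strains, rank 394). M01G12.7, at a gap of 16076 bases, had 2.47 FPKM in rde-1(ne219) mutants, 0.0185 FPKM in cpl-1* worms and 0.0105 FPKM in wild type (134-fold, rank 6). M01G12.14 lies between rrf-2 and M01G12.9 and had the smaller log2 ratio of 1.28 (1.97 against 0.813 FPKM). All 4 genes are on the minus strand, as is Y47H10A.5.

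The nearest gene on the other side, Y47H10A.4, begins at a gap of 1036 bases and had 4.61 FPKM in rde-1(ne219) mutants, 3.24 FPKM in cpl-1* worms and 2.51 FPKM in wild type, a log2 ratio of 0.51 between the cpl-1* strains. The gene after it, Y47H10A.2, was lower in rde-1(ne219) mutants, at 0.119 FPKM against 1.76 FPKM in cpl-1* worms (log2 ratio −3.89). The ribonucleoprotein gene hrp-2 and the kinase suppressor of Ras gene ksr-2, further along on that side, had log2 ratios of −0.60 and −0.81. On the upstream side, 6 of 10 genes were at least 2-fold higher and 0 lower in rde-1(ne219) mutants, and on the other side 1 was higher and 2 lower of 10, beside 28.1% and 14.1% of all genes. Of the 7 higher genes 5, namely M01G12.14, M01G12.7, F15H9.1, R05D7.2 and, on the other side, F58D5.6, reached 1 FPKM in the rde-1(ne219) mutant alone and so could enter only by being higher there. Among the other 15 neighbours, the 6 upstream held 2 that were at least 2-fold higher, rrf-2 and M01G12.9, and 0 lower. The 9 on the other side held 0 higher and 2 at least 2-fold lower, Y47H10A.2 and F58D5.9. These counts are small, and a difference between the sides was not tested.

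Over both sides, 7 of the 20 neighbours were at least 2-fold higher and 2 lower (median log2 ratio 0.43). Within 100000 bases, 11 of 33 genes with a completed test were at least 2-fold higher and 4 lower (median 0.24). Over chromosome I as a whole, 563 of 2638 genes (21.3%) were higher and 394 (14.9%) lower, with a median of −0.12. Chromosome medians ran between −0.12 for chromosome III and 0.56 for the X chromosome. In cpl-1* worms over wild type, 5 of the 20 neighbours were at least 2-fold higher and 0 at least 2-fold lower, beside 16.5% and 3.08% of all genes in that comparison.

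Ratios of Y47H10A.5 to rrf-2, M01G12.9 and M01G12.7 within a strain follow from the levels above and are no separate measurement. The FPKM of Y47H10A.5 was 32.0 times that of rrf-2 in rde-1(ne219) mutants, 3.17 times in cpl-1* worms and 1.77 times in wild type. Over M01G12.9 the ratio was 15.3 in rde-1(ne219) mutants, 0.856 in cpl-1* worms and 1.01 in wild type. Over M01G12.7 it differed little, at 273 in rde-1(ne219) mutants, 260 in cpl-1* worms and 222 in wild type. M01G12.7 had only 0.0185 FPKM in cpl-1* worms.

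**Figure D3:**
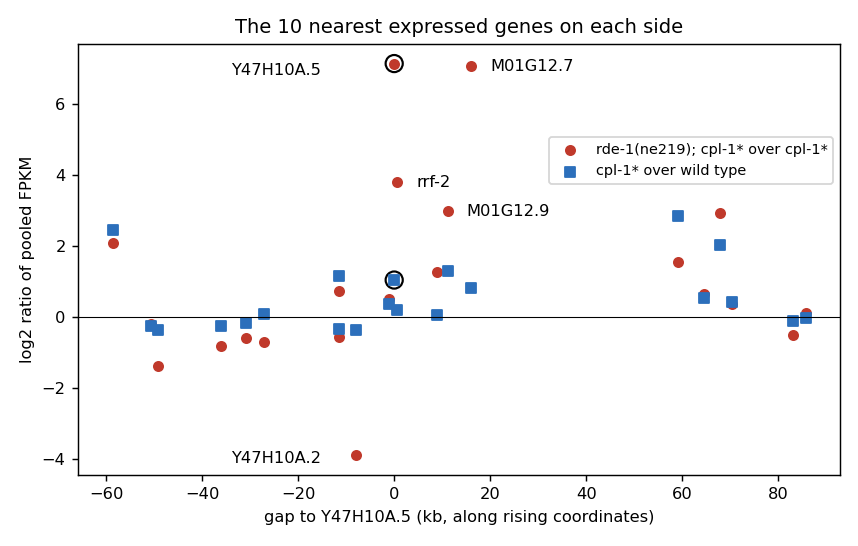
Log2 ratios of pooled FPKM for the 10 nearest expressed genes on each side of Y47H10A.5, against the gap between loci in kb, for rde-1(ne219); cpl-1* over cpl-1* (circles) and cpl-1* over wild type (squares), with Y47H10A.5 ringed at 0. On the right, which is upstream, rrf-2 (3.80), M01G12.9 (2.97) and M01G12.7 (7.06) lie high between the cpl-1* strains, whereas Y47H10A.2 on the left lies low (−3.89).

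Most genes of the silencing machinery, 31 of 36 with a completed test, had lower levels in rde-1(ne219) mutants than in cpl-1* worms, beside 44.2% of all genes. Germ line and oocyte markers were lower as well, with median log2 ratios of −0.61 over 3 genes and −2.15 over 6, and their part in the levels of the silencing genes was not tested. In the primary exo-RNAi step, all 4 genes had lower levels in rde-1(ne219) mutants, with a median log2 ratio of −0.64. Only rde-4, the double-stranded RNA binding partner of Dicer, was past 2-fold, at 49.5 FPKM in rde-1(ne219) mutants, 112 FPKM in cpl-1* worms and 114 FPKM in wild type. The Dicer gene dcr-1 had 13.0 FPKM in rde-1(ne219) mutants, 21.6 FPKM in cpl-1* worms and 23.8 FPKM in wild type. The mRNA of rde-1 had 19.3 FPKM in rde-1(ne219) mutants, 28.0 FPKM in cpl-1* worms and 28.3 FPKM in wild type. The Dicer-related helicase gene drh-1, which acts in antiviral RNAi, had a log2 ratio of −0.38.

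Of 18 genes for the synthesis of secondary siRNAs, 17 had a log2 ratio below 0 and the median was −0.75. The exception was the neighbour rrf-2. At least 2-fold lower in rde-1(ne219) mutants were mut-2 (log2 ratio −1.39), a nucleotidyltransferase gene, and nyn-2 (−1.38), rde-8 (−1.28) and rde-2 (−1.04). The polymerase genes rrf-1 (20.2 FPKM in rde-1(ne219) mutants against 31.9 FPKM in cpl-1* worms), ego-1 (12.2 against 21.9 FPKM) and rrf-3 (7.22 against 12.4 FPKM) had log2 ratios of −0.66, −0.85 and −0.78.

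Of 8 secondary Argonaute genes, 0 were at least 2-fold higher and 3 lower, namely hrde-1 (log2 ratio −1.34), wago-1 (−1.25) and nrde-3 (−1.13), and the median was −0.56. Among 6 genes of miRNA biogenesis and effectors with a completed test, alg-1 was higher (22.1 against 10.8 FPKM, log2 ratio 1.04), and drsh-1 (−1.39) and pash-1 (−1.14), the genes of the nuclear microprocessor, were lower. The miRNA gene mir-243 was listed at 0 FPKM in every strain and its test was not completed, so its level is not known from these data. Over the 4 lists, 2 of 36 genes were at least 2-fold higher in rde-1(ne219) mutants and 10 lower, beside 28.1% and 14.1% of all genes, and the median was −0.73 beside 0.21.

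**Figure D4:**
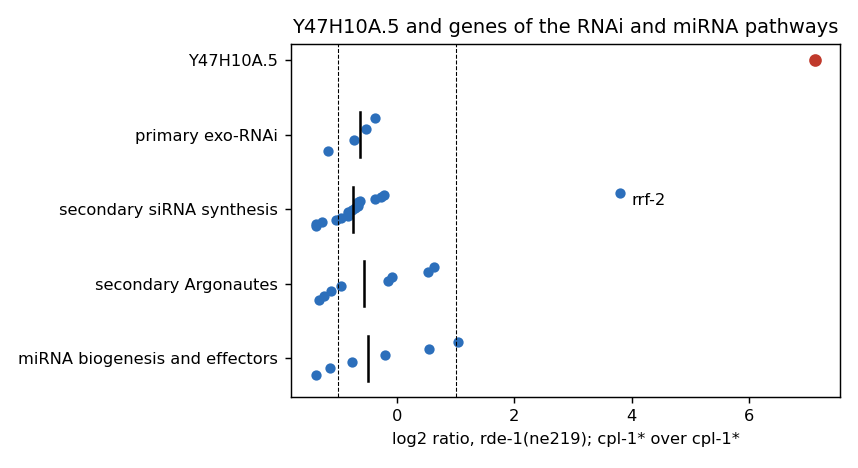
Log2 ratio of pooled FPKM, rde-1(ne219); cpl-1* over cpl-1*, for Y47H10A.5 and for each gene of 4 lists of the RNAi and miRNA pathways, with 1 point per gene, solid bars at list medians and dashed lines at 2-fold. Of the 36 listed genes 31 lie below 0, and rrf-2 (3.80) is the gene nearest to Y47H10A.5 (7.13).

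Other known targets of endogenous siRNAs gave different values. K02E2.6 and E01G4.5 are silenced by 26G siRNAs of the Argonaute ERGO-1. K02E2.6 had 23.0 FPKM in rde-1(ne219) mutants, 16.3 FPKM in cpl-1* worms and 15.0 FPKM in wild type (log2 ratio 0.49 between the cpl-1* strains). E01G4.5 was lower in rde-1(ne219) mutants, at 1.99 FPKM against 7.21 FPKM in cpl-1* worms (−1.86).

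Of the 5 endogenous transcripts that the study followed as candidate RDE-1 targets or controls, 4 were at least 2-fold higher in rde-1(ne219) mutants, beside 28.1% of all genes. The study picked targets to follow from these samples, so the count is no independent evidence. Their log2 ratios, 3.37 for the aspartyl protease gene asp-12, 3.13 and 3.06 for the collagen genes rol-6 and sqt-1, and 1.74 for cpl-1, were all below the 7.13 of Y47H10A.5. For cpl-1 the FPKM may hold reads of the gene and of the transgene. The study followed endogenous cpl-1 mRNA in worms that express another ER-directed substrate, ATM, rather than in these strains. The proteasome subunit gene pas-7 had −0.25. The ER chaperone gene hsp-4 had 1337 FPKM in rde-1(ne219) mutants, 291 FPKM in cpl-1* worms and 214 FPKM in wild type, 4.59-fold higher in rde-1(ne219) mutants than in cpl-1* worms.

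The strains also differed in markers of tissue and stage. Counts past 2-fold in these lists stand beside 28.1% of all genes higher and 14.1% lower in rde-1(ne219) mutants than in cpl-1* worms. All 6 oocyte markers were at least 2-fold lower in rde-1(ne219) mutants, with summed FPKM of 457 in rde-1(ne219) mutants, 2055 in cpl-1* worms and 2220 in wild type. The 5 yolk protein genes with a completed test were lower as well (median log2 ratio −4.36). All 5 markers of hypodermis and moulting cuticle were higher, with summed FPKM of 1607 in rde-1(ne219) mutants, 204 in cpl-1* worms and 34.7 in wild type. Of these, rol-6 (252 FPKM in rde-1(ne219) mutants) and sqt-1 (460 FPKM) are also targets the study followed, so they are no separate evidence. The 5 intestine markers had a median log2 ratio of 0.74, with 2 past 2-fold, and the 3 germ line markers one of −0.61, with 1 at least 2-fold lower. Those of body wall muscle and pharynx had medians of 0.78 and 0.90, and the 3 sperm and 3 neuron markers medians of 0.90 and −0.03, with 1 gene higher in each. Counts of 1 or 2 genes in lists this short are not read as a change. Markers also differed between cpl-1* worms and wild type. All 5 markers of hypodermis and moulting cuticle (median log2 ratio 2.02) and all 3 sperm markers (1.38) were at least 2-fold higher in cpl-1* worms. This stands beside 16.5% of all genes in that comparison. In the other tissue lists 0 markers were past 2-fold there. The part of these differences in the level of Y47H10A.5 was not tested.

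The genes whose pattern over the 3 strains was most like that of Y47H10A.5 were ranked by the Euclidean distance between pairs of log2 ratios (cpl-1* over wild type and rde-1(ne219) mutants over cpl-1*, with 0.1 FPKM added). Ranked were 9535 genes with a completed test in all 3 comparisons, at least 1 FPKM in a strain and a deposited locus shared with no other identifier. Within these limits C25F9.12 was the closest at a distance of 2.29, with 18.7 FPKM in rde-1(ne219) mutants, 0.479 FPKM in cpl-1* worms and 0.453 FPKM in wild type. It was followed by C29F3.3, F15B9.6 (distance 3.01), B0507.8 (3.15), sdz-35 (3.16), cpr-3 (3.27), F22E5.6 (3.45), W07G1.25 (3.45), rrf-2 (3.49) and the F-box gene fbxa-158 (3.51). Of these 10, C25F9.12, C29F3.3, B0507.8 and W07G1.25 reached 1 FPKM in the rde-1(ne219) mutant alone and so could enter only by being higher there. The median distance over the 9535 genes was 7.15 and the 5th percentile 5.09. With genes of any status included, a choice made after seeing the data, 9881 genes were ranked, 1 of the 10 was shared and rrf-2 stood at place 45. The genes that then came nearer than C25F9.12 were under 0.1 FPKM or at 0 in cpl-1* worms, such as ttr-4 (distance 1.80). ZK1025.8 shares its deposited locus with other identifiers and was not ranked.

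**Figure D5:**
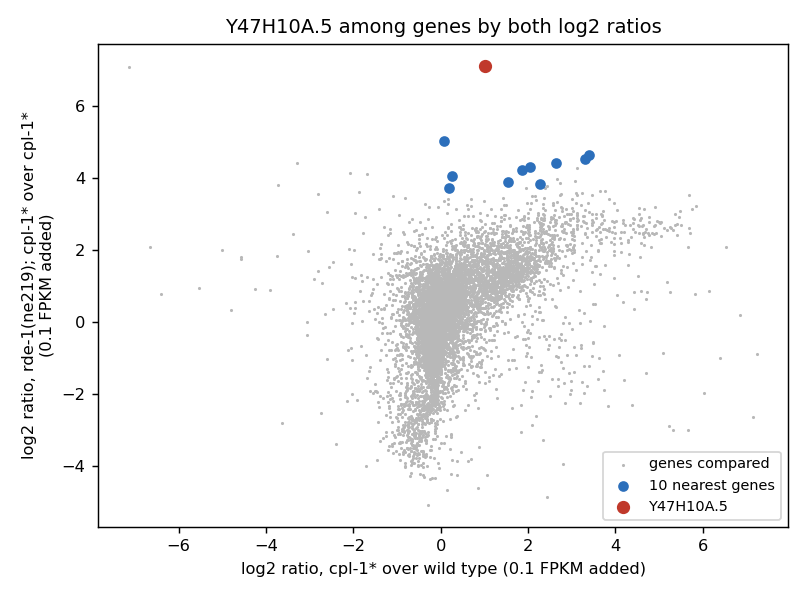
Log2 ratio of rde-1(ne219); cpl-1* over cpl-1* against that of cpl-1* over wild type, both with 0.1 FPKM added, with 1 point for each of 9535 genes with completed tests and a locus of their own, and with Y47H10A.5 and the 10 nearest of these marked. Y47H10A.5 lies above all 10, the closest of which, C25F9.12, is 2.29 away.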

How the data were processed

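Total RNA of whole worms was extracted with Trizol and sequenced by the study. The authors mapped reads to the Ensembl release 91 transcriptome, and their processing notes name FastQC 0.11.7, HISAT2 2.1.0, StringTie 1.3.4d and Cuffdiff 2.2.1. The deposited values are FPKM, 1 per gene and strain, pooled over the samples of a strain by the authors. The deposited table also holds the authors' fold changes, p-values, q-values and a status that tells whether their test was completed. Of these only the status was used. The table has 138654 rows for 46217 identifiers in 3 comparisons, and 3 repeat rows of 1 identifier were left out. Values of the 3 cpl-1WT samples were not used here.

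Log2 ratios were computed from the FPKM without a pseudocount, and a fold of 2 was counted as higher or lower in place of a test. Depth per sample is unknown, so no interval is given. Y47H10A.5 and the gene lists were chosen with earlier results of these data known. Genes named are those of the lists, the 10 nearest expressed neighbours on each side, the 10 nearest in pattern, the 3 ranked just above and below Y47H10A.5, and genes next in rank under an FPKM limit, which were added after their values were seen. The genes the study normalized its qPCR to are not reported here. The symbols rde-3, mut-8, C40A11.10 and mlt-10 were not matched. Coordinates are those of WBcel235, and 46042 identifiers matched Ensembl release 115 and overlapped their gene. Alternatives were other pseudocounts (0.1 and 1 FPKM), scalings, filters and a fold of 4, and a value was said to have moved at a factor of 1.5. Computations used numpy 2.4.6, pandas 2.3.3 and matplotlib 3.10.9 under Python 3.11.15. Ratios, ranks and 2-fold counts were run on simulated FPKM with planted changes. No other gene could pass 2-fold there, so that run checks the arithmetic alone. The neighbour, pattern and list steps were not run on simulated data.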

Additional observations from a re-analysis of the deposited data

How the results depend on the processing

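Of 58 alternatives, 46 left the value within a factor of 1.5, with log2 ratios taken as folds, 12 moved it and 0 reversed it. The median log2 ratio of the neighbours, 0.43, was 0.24 within 100000 bases and 0.37 within 50000 bases, and counts as unmoved on that scale. The log2 ratio of Y47H10A.5 between rde-1(ne219) mutants and cpl-1* worms lay between 6.86 (1 FPKM added) and 7.45 (upper quartile scaling), and that between cpl-1* worms and wild type between 0.80 and 1.07, under 2-fold with 1 FPKM added. Its rank between the cpl-1* strains was 1 with at least 1 FPKM in both strains, and 1 with 1 FPKM added. Its rank between cpl-1* worms and wild type was 957 with at least 1 FPKM in both. Its rank between rde-1(ne219) mutants and wild type was 5 with at least 1 FPKM in both, 16 with 0.1 FPKM added and 6 with 1 FPKM added. A fold of 4 gave 1640 genes higher and 908 lower between the cpl-1* strains, 1231 higher and 141 lower between cpl-1* worms and wild type, and 3451 higher between rde-1(ne219) mutants and wild type, by construction fewer. With 1 FPKM added, 7 of the 10 genes nearest in pattern were shared, and with genes of any status, added after seeing the data, 1 was. No paired analysis was possible because each strain has 1 pooled value, and no sample could be left out for the same reason.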
